A study of Mus musculus with 6 samples.

Results

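The amino acid transporters of activated T cells were examined as 10 genes whose proteins sit in the plasma membrane, out of 56748 genes in the count table. The genes were chosen by name, with earlier results of these data known, and were found by gene symbol. The list holds carriers of serine, glutamine, leucine, glycine and arginine, and the chain that the carriers SLC7A5 and SLC7A6 pair with. The 10 genes are *Slc7a5*, *Slc3a2*, *Slc7a6*, *Slc43a1*, *Slc1a5*, *Slc1a4*, *Slc38a1*, *Slc38a2*, *Slc6a9* and *Slc7a1*. RNA-seq had been performed on 6 cultures of CD4 T cells of WT C57BL/6 mice, 3 labelled with scrambled antisense oligonucleotides (ASOs) and 3 with ASOs against *Pgam*, the gene name the study uses for the glycolytic enzyme phosphoglycerate mutase. Naïve cells from spleen and lymph nodes of mice 6 to 10 weeks old had been activated with anti-CD3 and anti-CD28 under Treg polarizing conditions, that is with IL-2, TGF-β, anti-IFNγ and anti-IL-4. Scrambled or *Pgam* ASOs were present at 10 μM throughout the 72 hr of culture. Cells were not sorted, so each library mixes cells that did and did not become Tregs.

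A resting T cell takes up few amino acids, and activation brings a rise in transport that protein synthesis and growth depend on. Leucine enters mainly through a pair of chains, the carrier SLC7A5 (LAT1) and the glycoprotein SLC3A2 (the CD98 heavy chain), which brings the carrier to the cell surface and lets it trade an internal amino acid such as glutamine for an external one. Glutamine and serine enter through sodium-dependent carriers of the SLC1 and SLC38 families, and serine is also made inside the cell from the glycolytic intermediate that PGAM consumes.

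Depth was similar across the libraries. Replicates 1, 2 and 3 with the scrambled label held 17588755, 18032805 and 16231127 estimated counts, and those with the *Pgam* label held 16589933, 15860476 and 16803881. A floor of 3 counts, the least taken as shown at this depth, corresponded to 0.166 to 0.189 CPM, the count scaled to the total of its library, and floors cover counting error only. Expression is given below in CPM after TMM scaling, always for replicates 1, 2 and 3 in that order. A fold change above 1 means a higher value under the *Pgam* label than under the scrambled label. The study calls the replicates biological, and neither the labels nor the methods say whether they came from separate mice. The p-values therefore judge the difference between labels against the spread between these cultures, which may not include that between mice.

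The labels were checked first. *Pgam1* was at 600, 478 and 707 CPM in the libraries labelled scrambled and at 658, 661 and 707 CPM in those labelled *Pgam*. The groups overlapped and no library labelled *Pgam* ASO lay below the scrambled range, with a log2 fold change of 0.18 (SE 0.13, edgeR adjusted p = 0.331). The muscle form *Pgam2* was far scarcer, at 5.23, 6.75 and 2.85 CPM against 2.98, 2.69 and 2.60 CPM, with a log2 fold change of −0.84 (SE 0.31, adjusted p = 0.0854) and overlapping groups. Because the transcript of *Pgam1* was not lower, the libraries are named throughout by what their labels say, and a replicate called scrambled or *Pgam* is one so labelled. *Foxp3*, which encodes the transcription factor that defines Tregs, did separate the labels, at 282, 371 and 222 CPM against 89.7, 109 and 131 CPM (log2 fold change −1.41, SE 0.20, adjusted p = 0.00567).

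Of the 10 transporters, 5 had higher and 1 had lower expression in the libraries labelled *Pgam* ASO, and 4 did not pass the threshold. The 5 that rose were *Slc6a9*, *Slc7a5*, *Slc1a4*, *Slc3a2* and *Slc7a1*, by between 1.28-fold and 3.25-fold, and *Slc43a1* fell by 7.99-fold. Genes passed at an adjusted p under 0.05, from the quasi-likelihood method of edgeR and Benjamini-Hochberg correction over all 14936 tested genes, among which 8.03% were called higher (1199 genes) and 9.15% lower (1366 genes). Groups did not overlap in 7 of the 10 transporters. In 5 of these every library labelled *Pgam* ASO was the higher, against 19.6% of all tested genes, and in 2, *Slc43a1* and *Slc38a2*, every such library was the lower, against 19.8%. The median log2 fold change of the 10 was 0.31, with 8 above 0, and that of all tested genes was −0.01. Because the 10 were chosen with earlier results of these data known, their counts beside these shares are a description and not independent support. All 10 passed the filter on low counts, and each had at least 10 counts in every library. Bulk RNA cannot tell fewer cells of one kind apart from less RNA per cell, which holds for every value here. Counts of calls moved with single libraries. Over all tested genes 2565 were called, against 620 without scrambled replicate 1, 1256 without scrambled replicate 2, 871 without *Pgam* replicate 1 and 391 without *Pgam* replicate 2. The transporters called higher were then 4, 4, 4 and 3.

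**Figure D1:**
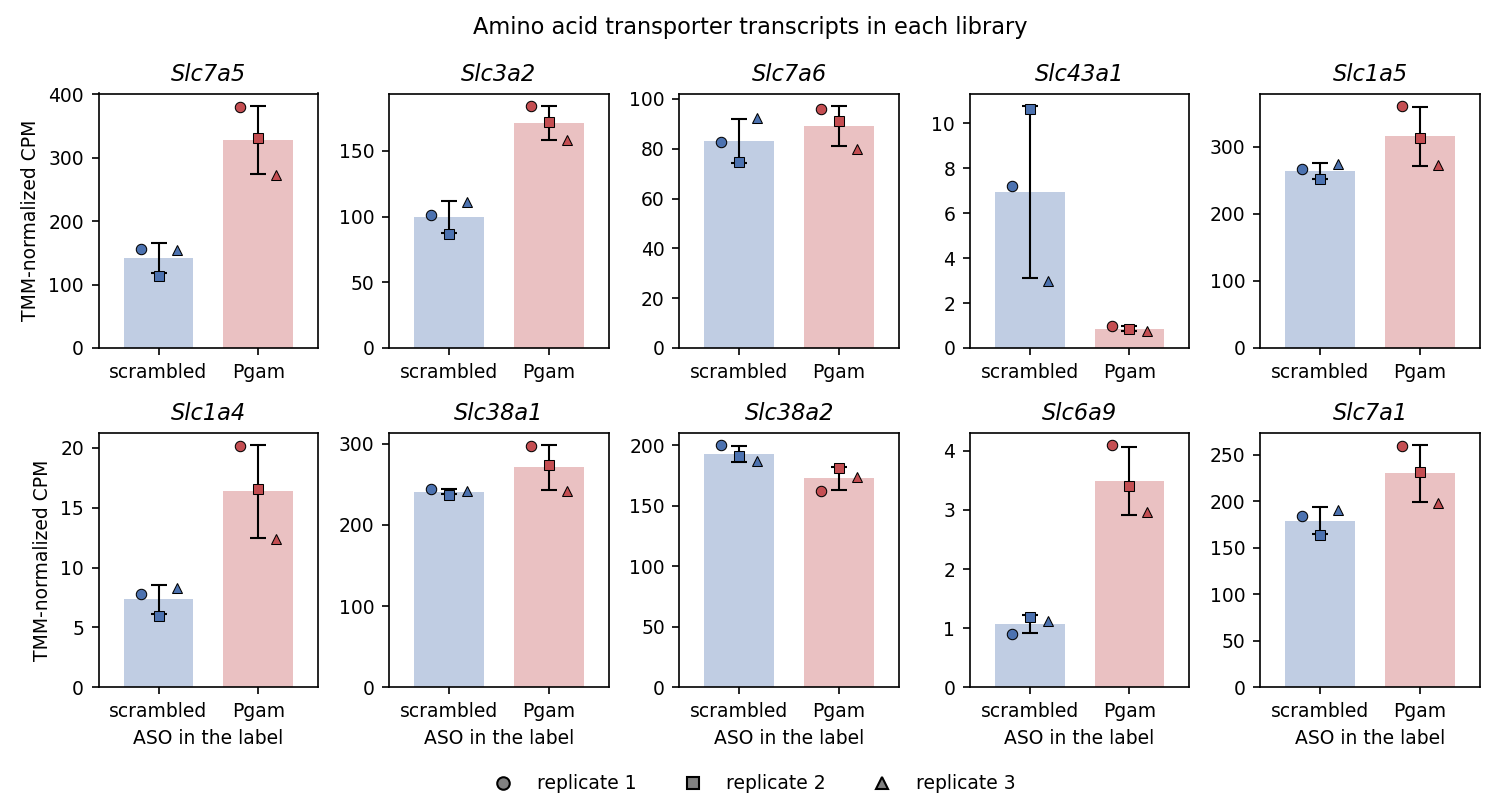
TMM-normalized CPM (vertical axes, each from 0) of the 10 transporters in the libraries labelled scrambled (blue) and *Pgam* ASO (red). Symbols are replicates 1 to 3, bars are means and error bars are SD (n = 3). The groups are apart in 7 panels, *Slc43a1* shows the widest spread relative to its mean among the libraries labelled scrambled, and *Pgam* replicate 1 is the highest of its label in 9 panels.

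Both chains of the leucine exchanger rose. *Slc7a5* (ENSMUSG00000040010), the LAT1 carrier of leucine and other large neutral amino acids, lies on the reverse strand of chromosome 8 from 121881150 to 121907694 (GRCm38, GENCODE M21). It was at 155, 114 and 155 CPM in the libraries labelled scrambled and at 380, 331 and 273 CPM in those labelled *Pgam*. The lowest *Pgam* library was well above the highest scrambled one, and scrambled replicate 2 was the lowest of all. From means of 141 ± 23.7 and 328 ± 53.7 CPM (SD, n = 3), *Slc7a5* rose by 1.22 on the log2 scale (SE 0.15, 95% interval 0.88 to 1.55, adjusted p = 0.00165) or 2.32-fold.

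*Slc3a2* (ENSMUSG00000010095; chromosome 19, reverse strand, from 8706882 to 8723369) encodes the heavy chain. Its expression was 101, 86.5 and 111 CPM with scrambled ASO labels and 184, 172 and 158 CPM with *Pgam* ASO labels. Again the groups stood apart, and the libraries within a label lay close together. Means of 99.6 ± 12.3 and 171 ± 12.9 CPM (SD, n = 3) gave a log2 fold change of 0.78 (SE 0.11, 95% interval 0.55 to 1.02, adjusted p = 0.00235), or 1.72-fold. The fold was the larger for *Slc7a5*. The ratio of *Slc7a5* to *Slc3a2* counts was 1.53, 1.32 and 1.39 in the libraries labelled scrambled and 2.06, 1.93 and 1.72 in those labelled *Pgam*. These ratios did not overlap, and their difference is a description without a test of its own.

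Another carrier that pairs with the heavy chain did not pass the test. *Slc7a6* (ENSMUSG00000031904; chromosome 8, forward strand, from 106168857 to 106198706) encodes y+LAT2, which exchanges arginine and other cationic amino acids for neutral ones. It was at 82.6, 74.6 and 92.2 CPM in the libraries labelled scrambled and at 96.0, 91.3 and 80.1 CPM in those labelled *Pgam*, and the groups overlapped, each with a library outside the range of the other. The log2 fold change of 0.10 (SE 0.10, 95% interval −0.13 to 0.33) had an adjusted p of 0.527. Per *Slc3a2* count there were 0.814, 0.863 and 0.832 *Slc7a6* counts in the libraries labelled scrambled and 0.521, 0.532 and 0.505 in those labelled *Pgam*, again without overlap or a test of the ratio.

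*Slc43a1* went the other way. It encodes LAT3, a carrier of leucine and other large neutral amino acids that needs no heavy chain, and it lies on the forward strand of chromosome 2 from 84838850 to 84863594 (ENSMUSG00000027075). Its counts were 128, 197 and 48 under the scrambled label and 16, 13 and 13 under the *Pgam* label, which is 7.20, 10.6 and 2.97 CPM against 0.994, 0.834 and 0.769 CPM. Scrambled replicate 3 was far below the other libraries of that label and still above every *Pgam* library. The log2 fold change was −2.998 (SE 0.46, 95% interval −4.01 to −1.98, adjusted p = 0.00413). It ran from −3.35 to −2.55 with each library left out in turn, and the call held each time. *Foxp3* had the same order among the libraries labelled scrambled, highest in replicate 2 and lowest in replicate 3. Under the *Pgam* label the orders were opposite, with *Slc43a1* highest in replicate 1 and *Foxp3* highest in replicate 3. Any relation between *Slc43a1* and *Foxp3* was not tested.

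*Slc43a1* had the only transporter promoter matched here that holds an E-box, the letters CACGTG that MYC and related factors recognize. Promoters of 300 bases, 250 before the start and 50 after it, were taken from RefSeq (GRCm38.p6) and matched 7 of the 10 genes, with 11 windows, namely all but *Slc1a5*, *Slc7a5* and *Slc38a1*. The E-box, which reads the same on both strands, was in 1 of these 11 windows and in 7.15% of all 32851 promoters. It lies on the forward strand from position −64 to −59 before the RefSeq start at 84840323, which is inside the gene as GENCODE M21 draws it, since other *Slc43a1* transcripts start upstream. A match describes the letters and not binding.

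Of the SLC1 pair, the scarcer gene rose. *Slc1a5* (ENSMUSG00000001918; chromosome 7, forward strand, from 16781340 to 16798274) encodes ASCT2, the sodium-dependent exchanger through which activated T cells take up much of their glutamine. It was at 266, 251 and 274 CPM in the libraries labelled scrambled and at 361, 313 and 273 CPM in those labelled *Pgam*. *Pgam* replicate 3 lay among the libraries labelled scrambled and the other *Pgam* libraries lay above them. The log2 fold change was 0.26 (SE 0.11, 95% interval 0.02 to 0.49), short of the threshold at an adjusted p of 0.114. Without *Pgam* replicate 3 it was 0.36 and passed (adjusted p = 0.0332), and over all alternatives the adjusted p ran from 0.0332 to 0.378.

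*Slc1a4* (ENSMUSG00000020142; chromosome 11, reverse strand, from 20302180 to 20332713) encodes ASCT1, which exchanges alanine, serine, cysteine and threonine. Its counts were 138, 111 and 134 against 324, 258 and 209, or 7.77, 6.0 and 8.30 CPM in the libraries labelled scrambled against 20.1, 16.6 and 12.4 CPM in those labelled *Pgam*. All *Pgam* libraries exceeded all scrambled ones, and *Pgam* replicate 3 came nearest to them. The gene rose by 1.15 on the log2 scale (SE 0.21, 95% interval 0.70 to 1.61, adjusted p = 0.0082), or 2.22-fold. Leaving out *Pgam* replicate 2 ended the call at nearly the same size (log2 fold change 1.14, adjusted p = 0.0534). Over all alternatives the adjusted p ran from 1.32e-08 to 0.0534. The lowest value came from omitting the count filter, where the log2 fold change hardly moved (1.16), and it is not read as stronger evidence. *Slc1a4* counts were 0.0291, 0.0238 and 0.0303 of *Slc1a5* counts in the libraries labelled scrambled and 0.0557, 0.0529 and 0.0454 in those labelled *Pgam*.

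The *Slc1a4* start is shown because it holds the letters TGATGNAA, a composite element recognized by ATF4, the transcription factor of the amino acid response. The element, searched on both strands, was in 1 of the 11 transporter windows and in 3.97% of all promoters, and neither the *Slc1a4* window nor the *Slc43a1* window held the other motif. The stretch is chr11:20332699-20332767, read on the reverse strand from position −54 to 15 around the start. Capitals mark the element, which reads TTGCATCA on the gene's strand from position −4 to 4.
Slc1a4: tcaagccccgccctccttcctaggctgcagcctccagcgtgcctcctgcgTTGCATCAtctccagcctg
The matched windows of *Slc3a2*, *Slc7a1* and *Slc6a9*, which also rose, held no such element. In these libraries the *Atf4* transcript was higher, at 161, 142 and 173 CPM against 230, 218 and 184 CPM (log2 fold change 0.41, SE 0.11, adjusted p = 0.0315). The element describes letters and not binding, and any part of ATF4 in the rise of *Slc1a4* was not tested. *Myc* did not pass, at 310, 251 and 306 CPM against 283, 270 and 239 CPM (log2 fold change −0.13, SE 0.10, adjusted p = 0.406).

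The SLC38 pair, sodium-coupled carriers of glutamine, alanine and other small neutral amino acids, did not pass the test in either direction. *Slc38a1* (ENSMUSG00000023169), encoding SNAT1, and *Slc38a2* (ENSMUSG00000022462), encoding SNAT2, are neighbours on the reverse strand of chromosome 15, from 96571418 to 96642913 and from 96687392 to 96699730, with 44478 bases and 1 gene between them. *Slc38a1* was at 244, 237 and 241 CPM in the libraries labelled scrambled and at 297, 273 and 242 CPM in those labelled *Pgam*. The scrambled libraries were nearly equal, and *Pgam* replicate 3 fell within their range. Its log2 fold change was 0.17 (SE 0.09, 95% interval −0.03 to 0.37, adjusted p = 0.213).

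*Slc38a2* was at 200, 191 and 187 CPM against 162, 181 and 174 CPM. Here every *Pgam* library was the lower, although the nearest libraries of the labels lay close together, and it was the only transporter in which *Pgam* replicate 1 was the lowest. The log2 fold change of −0.16 (SE 0.08, 95% interval −0.34 to 0.02) did not pass (adjusted p = 0.189). The ratio of *Slc38a1* to *Slc38a2* counts was 1.22, 1.24 and 1.29 in the libraries labelled scrambled and 1.83, 1.51 and 1.39 in those labelled *Pgam*, which did not overlap and were not tested. Of the 31-base stretches of *Slc38a1* transcripts, 6.94% also occur in other genes, between which Kallisto has to divide reads.

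The glycine carrier rose from a low level. *Slc6a9* (ENSMUSG00000028542; chromosome 4, forward strand, from 117834506 to 117875198) encodes GLYT1, which takes up glycine with sodium and chloride. Counts of 16, 22 and 18 under the scrambled label stood against 66, 53 and 50 under the *Pgam* label, or 0.900, 1.19 and 1.12 CPM against 4.10, 3.40 and 2.96 CPM. The groups were far apart relative to their spread. The log2 fold change of 1.70 (SE 0.29, 95% interval 1.06 to 2.34, adjusted p = 0.00661) was 3.25-fold. Its assignment to the gene is less certain than for the other transporters, since 28.4% of its 31-base stretches also occur in other genes, 26.1% of its stretches in *Ccdc24*. With *Ccdc24* counts added the log2 fold change was 1.69. Among the other transporters, *Slc3a2* shared 4.15%, *Slc7a1* 0.851%, *Slc1a4*, *Slc7a5* and *Slc7a6* 0%, and the rest but *Slc38a1* under 0.06%.

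The rise of the arginine carrier was the least secure. *Slc7a1* (ENSMUSG00000041313; chromosome 5, reverse strand, from 148327410 to 148399904) encodes CAT1, which carries arginine and lysine. It was at 184, 163 and 191 CPM in the libraries labelled scrambled and at 260, 232 and 198 CPM in those labelled *Pgam*. The groups did not overlap, although *Pgam* replicate 3 was only just above scrambled replicate 3. The log2 fold change was 0.36 (SE 0.11, 95% interval 0.12 to 0.60, adjusted p = 0.0486), or 1.28-fold. The call was lost under 8 of 14 alternatives, over which the adjusted p ran from 0.00334 to 0.169, the direction holding in each. The lowest value came from omitting the count filter, where the log2 fold change hardly moved (0.37). It was lost with limma-voom (0.0534), scaling by library size alone (0.0503), a minimum of 10 counts in every library (0.051) and the replicate number as a block (0.0958). It was also lost on leaving out scrambled replicate 1 (0.127), scrambled replicate 2 (0.116), *Pgam* replicate 1 (0.169) or *Pgam* replicate 2 (0.158).

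**Figure D2:**
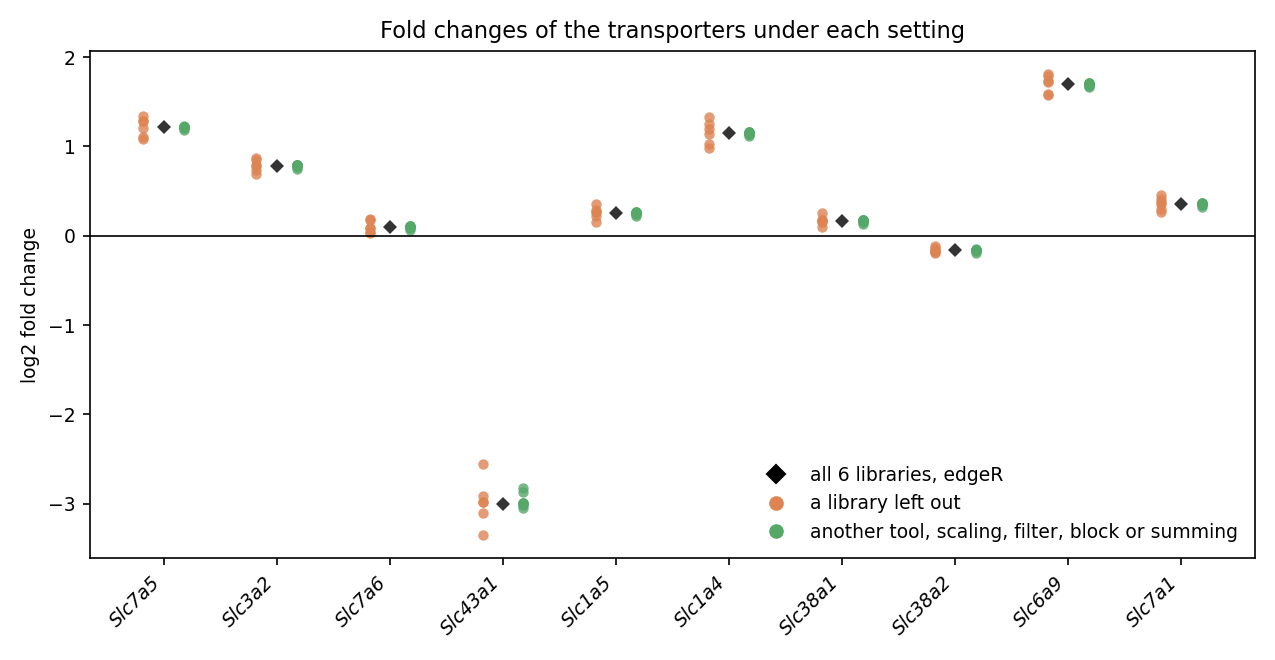
Log2 fold changes (vertical axis) of the 10 transporters with all 6 libraries in edgeR (black diamonds), with a library left out (orange) and under another tool, scaling, filter, block or summing (green). No transporter crosses 0, and *Slc43a1* has the widest range, from −3.35 to −2.55.

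Under the *Pgam* label most transporters shared an order of libraries, and under the scrambled label the order varied more. *Pgam* replicate 1 was the highest library of its label in 9 of the 10 transporters and *Pgam* replicate 3 the lowest in 9, which included all 5 that rose. Scrambled replicate 2 was the lowest of its label in 7 of the 10, among them 4 of the 5 that rose. The highest of that label was replicate 1 in 3 transporters, replicate 2 in 2 and replicate 3 in 5. The share of all tested genes with these orders is not given here, so they are not read as particular to the transporters. *Foxp3* ran the opposite way, lowest in *Pgam* replicate 1 and highest in *Pgam* replicate 3 among those labelled *Pgam*, and highest in scrambled replicate 2. Whether the proportion of Tregs in a culture has a part in these values was not tested.

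Levels were compared between genes as CPM per kb of the longest principal transcript. In the libraries labelled scrambled *Slc1a5* was the most abundant, at 91.0 to 99.1 CPM per kb, followed by *Slc3a2* at 47.5 to 60.9, and neither range overlapped the next. *Slc38a2* (40.1 to 43.0), *Slc7a5* (32.4 to 44.1) and *Slc38a1* (32.6 to 33.6) came next, with overlap between neighbours, and then *Slc7a1* (22.8 to 26.6) and *Slc7a6* (19.9 to 24.6), which also overlapped. *Slc43a1* (1.20 to 4.28) and *Slc1a4* (1.53 to 2.11) were not distinguishable, and *Slc6a9* was the lowest, at 0.259 to 0.342 CPM per kb.

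In the libraries labelled *Pgam* ASO the top of this order closed up on this length. *Slc1a5* (98.6 to 131 CPM per kb), *Slc3a2* (87.1 to 101) and *Slc7a5* (77.6 to 108) overlapped as neighbours and stood clear of *Slc38a1* (33.3 to 40.9), *Slc38a2* (34.9 to 38.9) and *Slc7a1* (27.6 to 36.2). *Slc7a6* followed at 21.3 to 25.6, *Slc1a4* at 3.15 to 5.13, *Slc6a9* at 0.850 to 1.18 and *Slc43a1* at 0.309 to 0.40 CPM per kb, with no overlap among these. *Slc43a1* thus moved from above *Slc6a9* to below it.

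Summed over the 10 transporters, the level was 326, 293 and 332 CPM per kb in the libraries labelled scrambled and 484, 440 and 387 CPM per kb in those labelled *Pgam*. The mean share of this sum taken by *Slc7a5* was 12.6% with scrambled ASO labels and 21.2% with *Pgam* ASO labels, and that of *Slc3a2* was 17.2% and 21.6%. *Slc1a5* took 30.2% and 26.0%, and *Slc38a2* 13.1% and 8.56%. The order depends on the length used. With the mean length of all coding transcripts, an alternative chosen after seeing the data, *Slc3a2* had the highest mean under both labels, overlapping *Slc1a5* under the scrambled one and clear of it under the *Pgam* one, so that the top then opened in place of closing up, and *Slc7a1* and *Slc7a6* ranked above *Slc38a1* and *Slc38a2*.

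**Figure D3:**
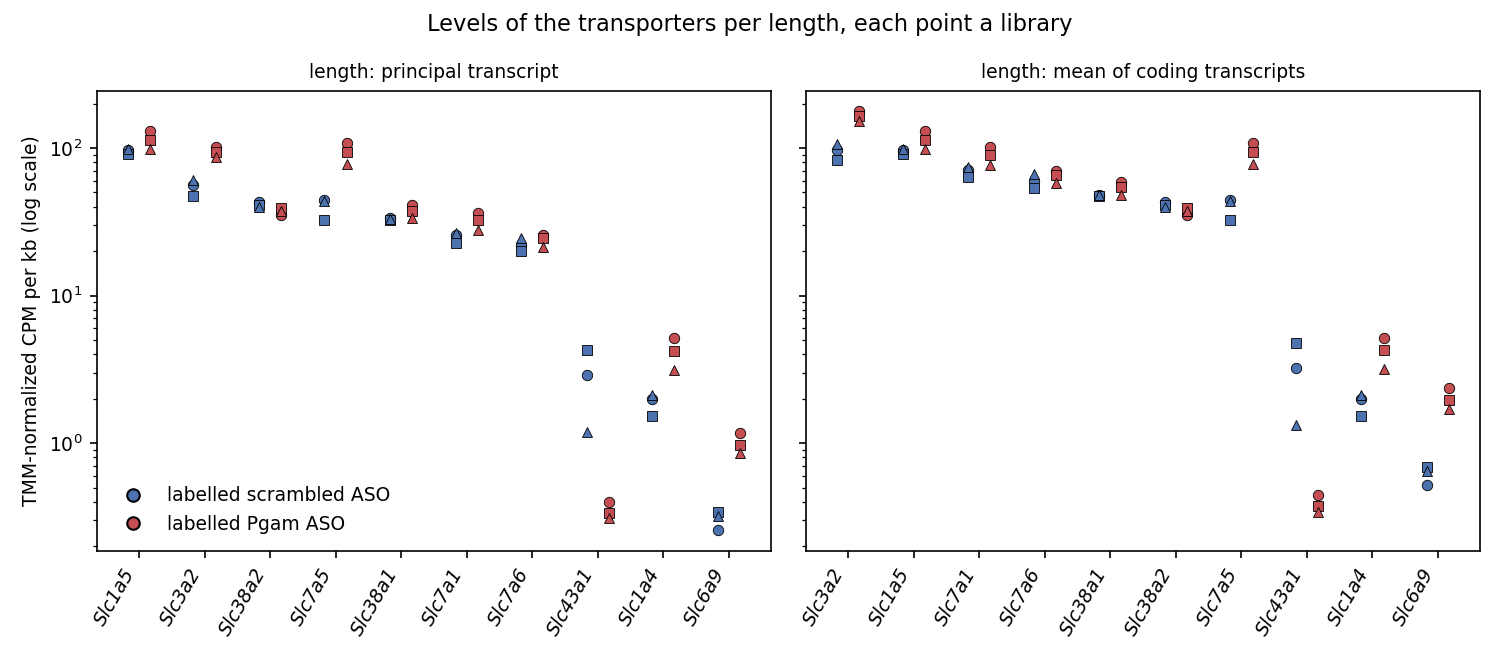
TMM-normalized CPM per kb (vertical axis, log scale) of the 10 transporters, for the length of the longest principal transcript (left) and the mean length of coding transcripts (right), in libraries labelled scrambled ASO (blue) and *Pgam* ASO (red). Circles, squares and triangles are replicates 1, 2 and 3, and genes are sorted by their scrambled mean. *Slc7a5* reaches 77.6 to 108 CPM per kb with *Pgam* ASO labels, and *Slc43a1* falls to the lowest place.

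Among the 11911 tested genes outside the 10 transporters with a mean log2 CPM of at least 1, the profiles nearest to 3 of the transporters were found by the root mean square distance between centred log2 CPM over the 6 libraries, as a description without a test. *Rnf19b* (0.0914), *Etv5* (0.102) and *Lrrk1* (0.108) were nearest to *Slc7a5*, and a fellow transporter, *Slc1a4* (0.0847), was nearer still. *Rnf19b*, for example, was at 228, 159 and 256 CPM in the libraries labelled scrambled and at 590, 456 and 401 CPM in those labelled *Pgam*. For *Slc3a2* the nearest were *Dpy19l1* (0.0370), *Clic4* (0.0424) and *Shmt2* (0.0511), and its nearest fellow transporter, *Slc1a4*, was at 0.223. For *Slc1a5* they were *Dus4l* (0.0171), *Mex3c* (0.0200) and *Gm7964* (0.0205), with *Slc38a1* at 0.0615.

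Few other amino acid transporters of the plasma membrane were expressed. Of 33 such genes, 12 passed the filter, 2 of these rose, *Slc7a8* being one of them, and 1 fell, against 8.03% higher and 9.15% lower among all tested genes. The 21 filtered genes had at most 40 counts over all libraries, and 7 of them had none. *Slc7a8*, encoding LAT2, another light chain that pairs with SLC3A2, was at 0.281, 0.270 and 0.186 CPM in the libraries labelled scrambled, near the floor, and at 3.11, 1.86 and 1.30 CPM in those labelled *Pgam*. Its counts were 5, 5 and 3 against 50, 29 and 22, so it passed the filter only through the libraries labelled *Pgam*, and its test is not read as support for a difference. *Slc1a2*, a glutamate carrier, was at 1.29, 0.648 and 1.43 CPM against 7.83, 5.20 and 3.37 CPM (log2 fold change 2.28, SE 0.39, adjusted p = 0.00703). *Slc43a2*, which encodes LAT4 and is the close relative of *Slc43a1*, fell, from 71.4, 89.2 and 64.7 CPM to 42.2, 47.3 and 58.5 CPM (log2 fold change −0.61, SE 0.15, adjusted p = 0.0237). The most counted gene of the list, the taurine carrier *Slc6a6*, was at 252 ± 13.2 and 253 ± 18.2 CPM (SD, n = 3), with a log2 fold change of 0.01 (adjusted p = 0.973).

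Carriers inside the cell were counted against the same shares of 8.03% and 9.15%. Of 10 lysosomal amino acid and peptide carriers in the table, 9 were tested, and 1 rose and 1 fell, close to those shares. *Slc15a3*, a peptide and histidine carrier and the most counted of them, rose (log2 fold change 1.22, SE 0.23, adjusted p = 0.0159), and *Slc38a9*, the lysosomal arginine sensor of mTORC1, fell (−1.26, SE 0.28, adjusted p = 0.0247). Of 13 mitochondrial carriers, 12 were tested, and 4 rose and 1 fell. The serine carrier *Sfxn1*, the most counted, rose from 110 ± 13.3 to 146 ± 12.4 CPM (SD, n = 3; log2 fold change 0.41, SE 0.11, adjusted p = 0.0300), and so did *Sfxn2* (0.49, adjusted p = 0.0442), the aspartate and glutamate exchanger *Slc25a12* (0.36, adjusted p = 0.0191) and the basic amino acid carrier *Slc25a29* (0.94, adjusted p = 0.0343). *Sfxn3* fell (−0.94, SE 0.15, adjusted p = 0.00537). Of 7 partners and regulators of the transporters *Atf4* alone passed, and *Itgb1*, the integrin chain that CD98 binds and the most counted of them, was at 309 ± 40.9 and 298 ± 9.08 CPM (SD, n = 3; log2 fold change −0.05, adjusted p = 0.756).

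**Figure D4:**
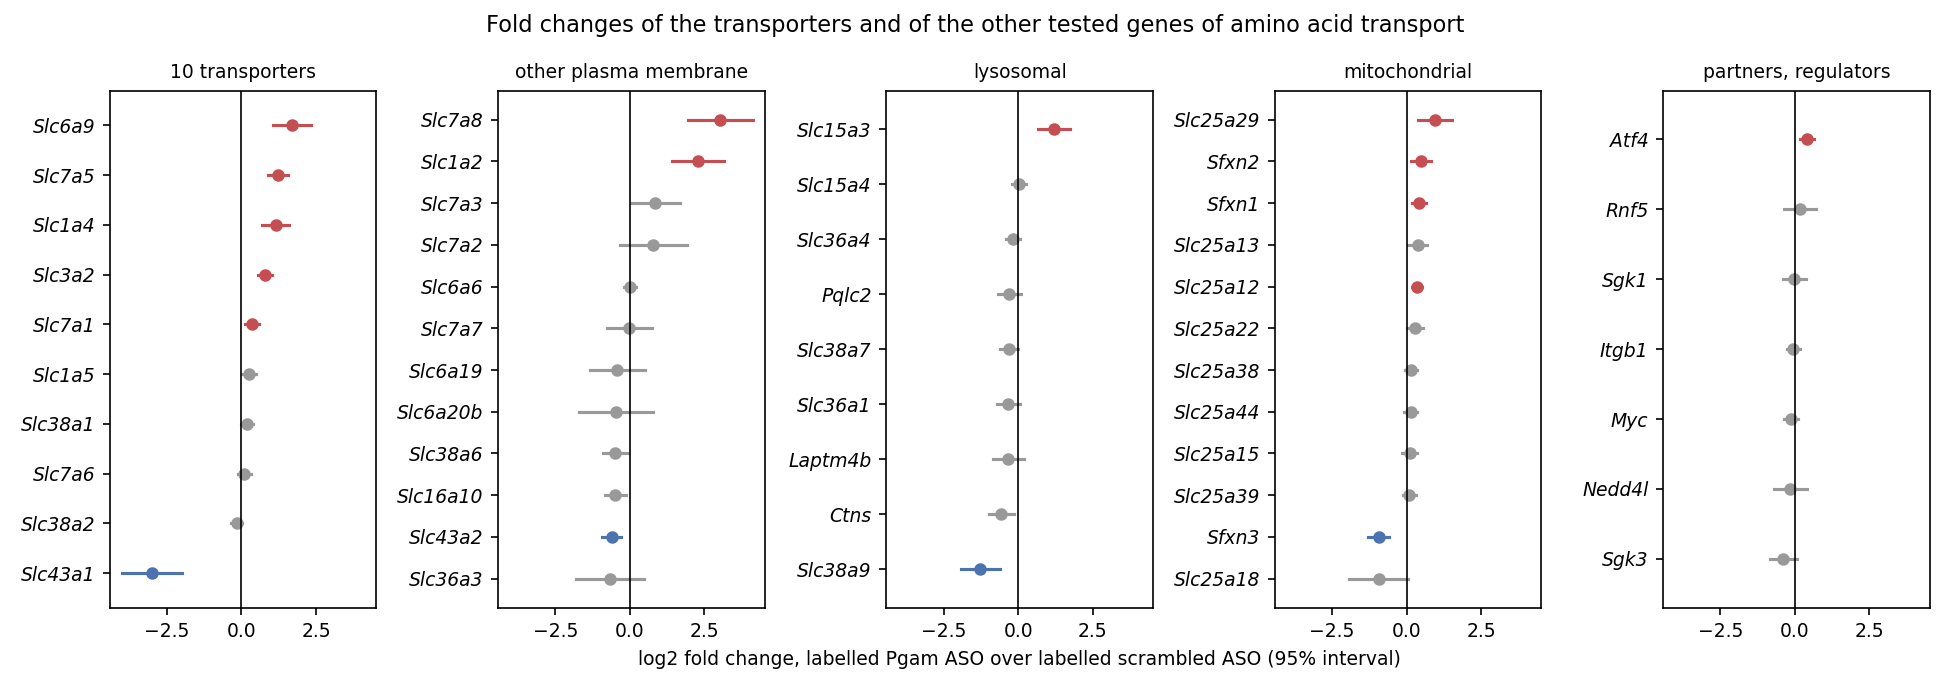
Log2 fold changes (points) with 95% intervals (lines) of the 10 transporters and of the tested genes of the 4 other lists. Red marks genes called higher, blue genes called lower and grey those that did not pass. In the left panel 5 transporters are red and *Slc43a1* is blue.

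Cell type markers showed T cells in every library. The 7 CD4 T cell markers summed to 2757, 2947 and 2590 CPM in the libraries labelled scrambled and to 2209, 2255 and 2274 CPM in those labelled *Pgam*. *Cd4* was the most counted, at 770 ± 36.2 and 666 ± 26.6 CPM (SD, n = 3; adjusted p = 0.0869). In 6 of the 7 every library labelled *Pgam* was the lower, against 19.8% of all tested genes, and 2 were called lower, against 9.15%. These were *Cd28* (log2 fold change −0.66, adjusted p = 0.00183) and *Cd5* (−0.49, adjusted p = 0.0193), and the part of cell makeup in the transporters' values was not tested. Both CD8 markers together were at 11.3, 13.5 and 10.8 CPM against 14.6, 10.9 and 15.7 CPM, mostly *Cd8b1*, and *Cd8a* rose (1.12, adjusted p = 0.0286).

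Markers of other cells were low. The 5 B cell markers, led by *Cd79a*, summed to between 6.63 and 11.6 CPM in the 6 libraries, and all 5 were tested with none called. The 6 myeloid markers, led by *Cd68*, summed to between 5.77 and 8.80 CPM, and the 6 erythroid markers, led by *Alas2*, to between 1.55 and 2.87 CPM. Of these 3 and 2 passed the filter and were tested, with none called. The 4 NK markers summed to 52.6, 32.2 and 55.02 CPM against 28.3, 26.9 and 24.1 CPM, nearly all from *Eomes*, which T cells also express and which fell (−0.82, adjusted p = 0.0214), while *Klrb1c* and *Klra8* were at 0 in all libraries. The 4 mast cell and basophil markers summed to 6.25, 7.13 and 6.94 CPM against 4.72, 4.94 and 5.56 CPM, led by *Kit*, which fell (−1.68, adjusted p = 0.0142). The other markers of that list were higher in every library labelled *Pgam*, at levels of 0 to 1.51 CPM against 0.248 to 2.55 CPM. Of these *Cpa3* was tested and did not pass (log2 fold change 1.09, adjusted p = 0.0526), and *Fcer1a* and *Mcpt8* were filtered.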

How the data were processed

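The authors deposited estimated counts per Ensembl gene, written as whole numbers without normalization, so rounding changed nothing. The submitters' processing notes list kallisto and GRCm38, and the version, the annotation and the strand setting are not given in the sources used here. Symbols, coordinates and lengths came from GENCODE M21, which held 52073 of the 56748 genes. For 14936 genes kept by filterByExpr, edgeR 4.0.16 under R 4.3.3 compared 3 with 3 libraries (TMM factors 0.9721 to 1.029, robust quasi-likelihood test, two-sided, Benjamini-Hochberg over all tested genes). SEs were derived from the F statistics. The procedure was tested on simulated data, with bounds for passing set after its first run. When dispersion varied by gene there, false calls exceeded the nominal rate in edgeR and limma-voom and most in DESeq2, so adjusted p-values near the threshold may be too small. Alternatives were DESeq2 1.42.0, limma-voom (limma 3.58.1), RLE or library-size scaling, omission of ribosomal and mitochondrial genes, other count filters, a replicate block, each library left out, and, for *Slc6a9*, summing with the gene that shares at least 10% of its 31-base stretches.

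The members and lists were chosen with earlier results of these data known. Named genes were all 10 members, then from each other list every gene with an adjusted p under 0.05 (at most 8) and the most counted gene, *Pgam1*, *Pgam2* and *Foxp3*, and the 3 nearest profiles for *Slc7a5*, *Slc3a2* and *Slc1a5*. *Myc*, *Klrb1c*, *Klra8*, *Cpa3*, *Fcer1a*, *Mcpt8* and *Ccdc24* were named after their values were seen.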

Additional observations from a re-analysis of the deposited data

How the results depend on the processing

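Of 141 refits of single transporters, 131 kept their direction and side of the threshold, 9 lost the call (8 of *Slc7a1*, 1 of *Slc1a4*), 1 gained it (*Slc1a5* without *Pgam* replicate 3) and 0 reversed. *Slc7a5*, *Slc3a2* and *Slc43a1* passed under each of 14 alternatives, and *Slc6a9* under 15, the last being the sum with *Ccdc24*, which changes no other transporter. With each library left out, the calls over all tested genes ran from 391 (without *Pgam* replicate 2) to 3484 (without scrambled replicate 3), against 2565 with all 6, and were 3319 without *Pgam* replicate 3. The transporters called higher ran from 3 to 6, against 5, and those called lower stayed at 1. These fits have fewer libraries, which lowers their power, and the cause of the differences between libraries was not tested. The replicate number as a block gave 1235 calls over all tested genes and ended the call of *Slc7a1* (adjusted p = 0.0958) and of no other transporter. Neither the labels nor the methods say whether equal numbers pair the samples, and the values gave no sign of it. Deviations of equal numbers correlated at r between −0.237 and 0.0534, against −0.254 to 0.28 for different numbers. Not every library correlated best with its own number. Other tools, scalings and filters gave between 2448 and 3732 calls. Depth limits *Slc43a1* and *Slc6a9* most, whose lower label held 13 to 16 and 16 to 22 counts per library.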
